A study of Mus musculus with 12 samples.

Results

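The genes described here are the potassium, sodium and chloride channel genes expressed in mouse gastrocnemius, the large calf muscle. They were taken as the protein-coding genes with symbols of the Kcn, Scn (a or b) and Clcn series that had at least 10 counts in 3 or more of 12 RNA-seq libraries. Of 115 protein-coding genes with such symbols, 45 met this threshold, in a table of 43432 gene identifiers. The other 70 did not, and 30 of those had 0 counts in every library. The 45 comprise 7 chloride channels and exchangers, 2 sodium channel alpha subunits, 4 sodium channel beta subunits and 32 potassium channel genes. The potassium channel genes were 16 voltage-gated subunits, 4 inward rectifiers, 4 subunits with paired pores (the Kcnk series), 5 calcium-activated channels and 3 auxiliary subunits.

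Channels of the surface membrane and T tubules set the electrical behaviour of a muscle fibre. Sodium channels carry the upstroke of the action potential, voltage-gated potassium channels bring the membrane back, and the chloride conductance together with inward rectifiers holds the resting potential steady. Potassium leaves the fibre with every action potential, so that running raises potassium outside the fibres, and inward rectifiers and pumps are among the routes that take it back up.

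Libraries came from 4 groups of male mice, with 3 libraries each, and each library is labelled as a separate sample. Exercised MKO mice (replicates 1, 2 and 4) and exercised WT mice (replicates 3, 4 and 5) were taken after a run of 90 min, at a constant 60% of each animal's top speed. Sedentary MKO mice (replicates 1, 2 and 3) and sedentary WT mice (replicates 1, 3 and 4) had not run. MKO stands for the cFeimin MKO genotype and WT for fl/fl littermates. The study asked how cellular Feimin bears on running performance and on heat production in muscle. No source used here gives the Cre driver, the age of the mice or the delay from run to sampling. The library protocol names 18 libraries, of which 12 were analysed here. P-values below measure only the spread between these samples.

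The 12 libraries held 14324010 to 14563501 counts each. B230219D22Rik, taken here to be the gene that encodes Feimin, averaged 4.06 ± 0.534 CPM (read counts scaled to a common library size and adjusted for library composition) in exercised MKO and 25.4 ± 4.15 CPM in exercised WT muscle, and 4.92 ± 1.25 CPM in sedentary MKO and 22.6 ± 1.41 CPM in sedentary WT muscle (SD, n = 3 each). The 8 skeletal muscle fibre markers (among them Ckm, Acta1 and Myh4) summed to 118570 to 172516 CPM in every library. The 10 slow-fibre markers summed to 144 CPM in sedentary MKO replicate 3, against 690 to 2053 CPM in the other 11 libraries. Replicate 4 of exercised MKO, replicate 5 of exercised WT and replicate 3 of sedentary MKO stood apart from the other libraries of their groups. Measured as the chi-square per gene between the counts of 2 libraries, exercised MKO replicate 4 lay at 14.2 or more from the others, which were 6.09 apart. Exercised WT replicate 5 lay at 26.2 and 30.3 from the others, which were 4.63 apart, and sedentary MKO replicate 3 at 39.2 and 49.3 from the others, which were 8.63 apart. The 3 sedentary WT libraries were 13.5 to 26.2 apart. Results that change without these 3 libraries are given both ways.

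Several channels known from muscle fibres were among the highest. Levels of different genes are compared as CPM per kb of exon, averaged over the 12 libraries. Kcna7, a voltage-gated potassium channel of muscle, stood at 59.0, Scn4b, a sodium channel beta subunit, at 37.8, Scn4a, the sodium channel alpha subunit of skeletal muscle, at 35.2, and Clcn1, which carries the resting chloride conductance of muscle fibres, at 18.5 CPM per kb. The 45 genes together summed to 1434 to 1696 CPM per library. The median gene had 5.16 CPM, 36 genes averaged at least 1 CPM and 18 at least 10 CPM. The lowest was Kcnh7 at 0.0457 CPM per kb.

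**Figure D1:**
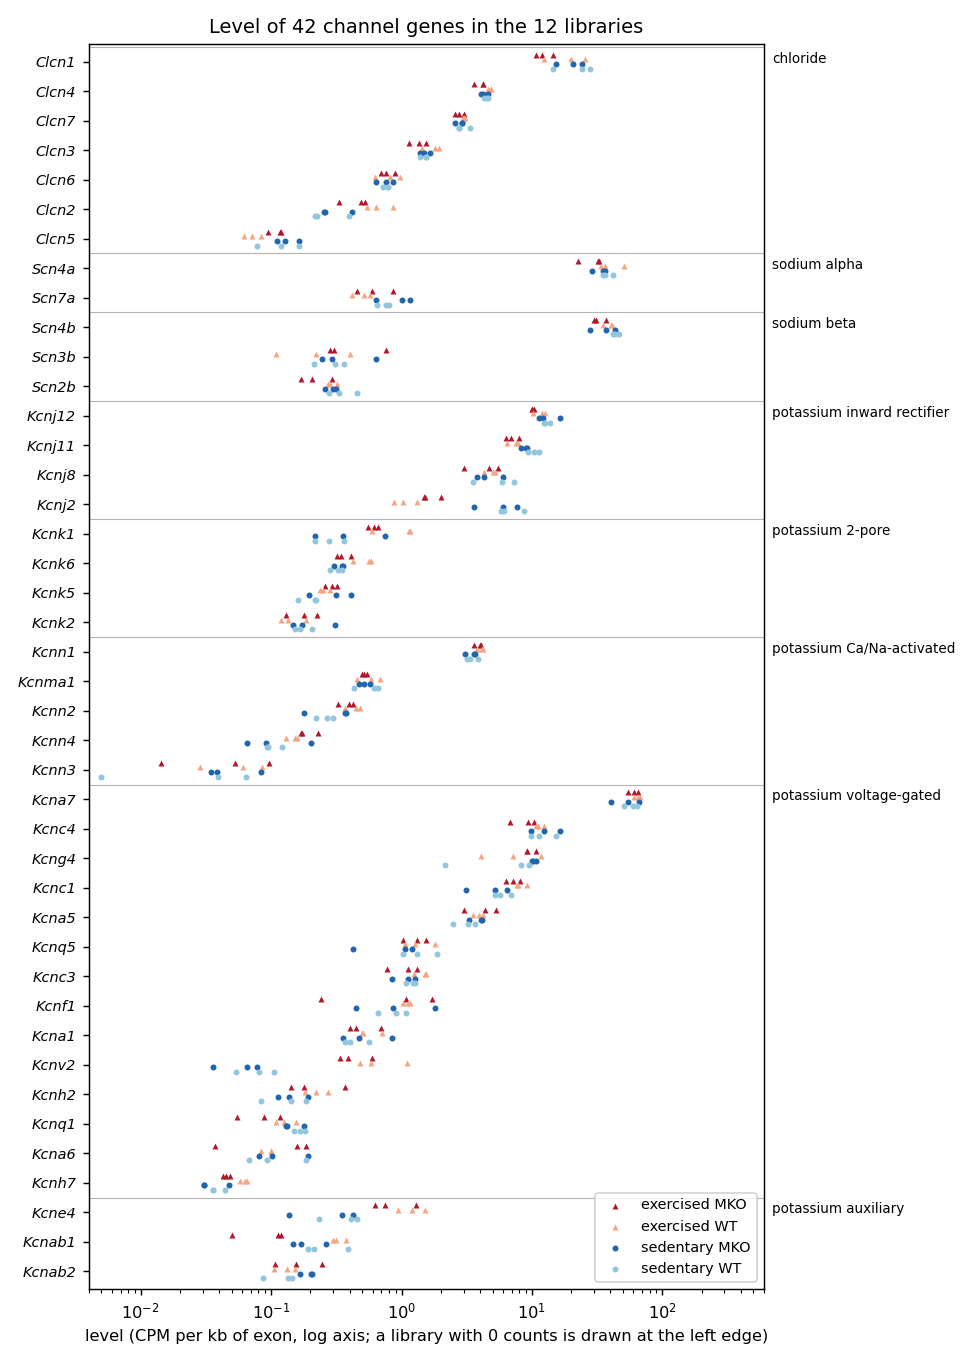
Level of 42 of the 45 channel genes in each of the 12 libraries, as CPM per kb of exon on a log axis, ordered by family and then by mean level. Triangles are exercised and circles sedentary libraries. For Kcnj2, Kcnj11, Kcnv2 and Kcne4 the exercised and sedentary libraries lie apart without overlap.

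Within some families 1 gene stood far above the rest, while in others the genes were closer in level. Among the inward rectifiers Kcnj12 led with 9.94 to 16.4 CPM per kb over the 12 libraries, ahead of Kcnj11 at a mean of 8.38, Kcnj8 at 4.87 and Kcnj2 at 3.85. Kcnj12 and Kcnj2 encode strong inward rectifiers, Kcnj11 the pore of the ATP-sensitive potassium channel of the fibre, and Kcnj8 that of mural cells of vessels. Neighbours in this order overlapped in range, with 6.33 to 11.3 CPM per kb for Kcnj11, 2.99 to 7.28 for Kcnj8 and 0.868 to 8.71 for Kcnj2. Among voltage-gated potassium genes, Kcna7 was followed by Kcnc4, a fast-inactivating channel, at 11.3, Kcng4, a silent subunit that modifies other channels, at 8.58, and Kcnc1, a rapidly deactivating channel, at 6.57 CPM per kb. The ranges of Kcnc4, Kcng4 and Kcnc1 over the 12 libraries overlapped. Kcnn1 led the calcium-activated genes at 3.72 CPM per kb, above the large-conductance channel Kcnma1 at 0.547 and Kcnn3 at 0.0497. The 4 genes with paired pores all averaged under 1 CPM per kb, with Kcnk1 highest at 0.574.

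Of genes known from other cells of muscle, Scn7a, a sodium-sensing channel of glia, reached 0.703 CPM per kb and Kcna1, a channel of myelinated axons, 0.523 CPM per kb. Of the 6 channels listed for mural cells, nerve and glia, Kcnj10 (0 to 3 counts), Kcna2 (0 to 5 counts) and Kcnmb1 (3 to 12 counts) did not reach the threshold. Just inside the threshold lay Kcnq1 (3 to 11 counts), Kcnn3 (0 to 14 counts) and Kcna6 (3 to 17 counts), and just outside it Kcnmb1 and Kcnu1 (0 to 13 counts). In all, 31 of the 45 had at least 10 counts in every library.

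For some genes single libraries lay far from the rest of their group. Kcnf1, a silent voltage-gated subunit, had the widest spread, with 1.15 CPM in exercised MKO replicate 4, against 5.21 and 8.15 CPM in the other exercised MKO libraries. In sedentary MKO muscle it had 8.59 CPM in replicate 3, against 4.13 and 2.14 CPM. Kcng4 had 8.16 CPM in sedentary WT replicate 4, against 36.4 and 31.4 CPM in the other sedentary WT libraries and 38.1 to 40.6 CPM in sedentary MKO muscle. In exercised WT muscle Kcng4 also varied widely, with 15.4, 44.5 and 27.1 CPM. Scn3b, a sodium channel beta subunit, had 4.17 CPM in exercised MKO replicate 4 and 3.51 CPM in sedentary MKO replicate 3, against 0.591 to 2.21 CPM elsewhere. Kcnq5 had 3.27 CPM in sedentary MKO replicate 3, against 7.85 to 14.3 CPM in the other 11 libraries. These are single libraries, named after their values were seen, and the groups overlap for Kcnf1, Scn3b and Kcnq5 in each of the 4 comparisons. Kcna1 was highest in sedentary MKO replicate 1 (4.06 CPM), where the 8 Schwann cell markers also had their highest sum, 303 CPM against 31.4 to 225 CPM elsewhere. The part of nerve content in the level of Kcna1 was not tested.

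**Figure D2:**
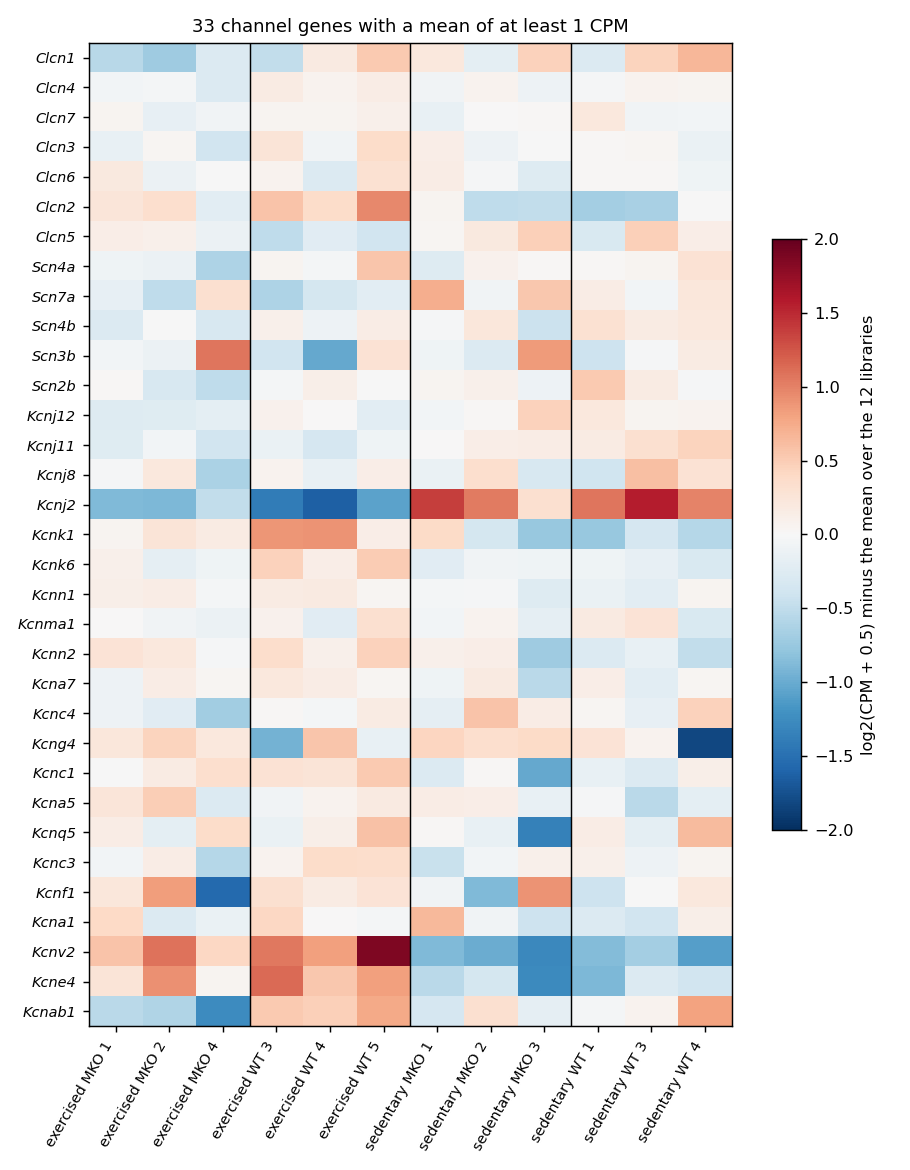
Deviation of 33 of the 36 channel genes with a mean of at least 1 CPM from their own mean over the 12 libraries, as log2(CPM + 0.5), one column per library and one row per gene. Kcnj2, Kcnj11, Kcnv2 and Kcne4 divide the exercised from the sedentary columns, whereas Kcnf1, Kcng4, Scn3b and Kcnq5 stand out in single libraries.

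The first question was how running bears on these genes in WT muscle. After running, 7 of the 44 channel genes that could be tested changed, of which 5 rose and 2 fell. The inward rectifier Kcnj2 fell 6.43-fold and Kcnj11 1.42-fold. The silent subunit Kcnv2, the auxiliary subunit Kcne4, the paired-pore channels Kcnk1 and Kcnk6 and the chloride channel Clcn2 rose between 1.65-fold and 8.80-fold. The abundant channels of the fibre, Scn4b, Scn4a, Clcn1 and Kcna7, did not pass, with log2 fold changes between -0.20 and 0.14.

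The 7 genes are 15.9% of the 44, beside 8.24% of all 14486 genes tested that changed in the same comparison (edgeR's quasi-likelihood test, adjusted p under 0.05 over all genes). By direction, 4.14% of all genes rose and 4.1% fell. At an unadjusted p under 0.05 the channel genes were near the background, with 10 of 44 (22.7%) against 21.3% of all genes, and the groups did not overlap for 14 of 44 (31.8%) against 27.3%. Log2 fold changes were above 0 for 28 of 44, beside 48.9% of all genes, with a median of 0.12 against -0.01. With libraries scaled by their totals alone they were above 0 for 22 of 44, with a median of 0.02 against -0.10. Kcnq1 was too low to be tested. Membership itself depended on state for a few genes: Kcnv2 had at least 10 counts in all 6 exercised and in 0 of 6 sedentary libraries, so that it met the threshold only through the group in which it was high. Without the 5 genes with fewer than 3 such sedentary libraries and the 3 with fewer than 3 such exercised ones (Kcnn3 and Kcna6 are in both sets), 6 of 39 tested genes passed (15.4%). The count of 7 rested in part on single libraries: it was 3 without sedentary WT replicate 1 (Kcnj11, Kcnj2 and Kcnv2) and 4 without sedentary WT replicate 4. It was also 4 when exercised WT replicate 3 was left out, and 5 when the 3 libraries that stood apart were.

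Kcnj2 (ENSMUSG00000041695, chr11:111066164-111076821, plus strand, GRCm38.p6) encodes a strong inward rectifier that stabilises the resting potential of muscle fibres. It had 5.59, 4.73 and 7.15 CPM in exercised WT muscle and 33.4, 47.4 and 31.7 CPM in sedentary WT muscle. In MKO muscle it had 8.22, 8.15 and 10.9 CPM after running and 41.8, 32.8 and 19.7 CPM at rest. Every exercised library was below every sedentary one. The raw counts were 64 to 152 in exercised and 326 to 703 in sedentary libraries. The log2 fold change was -2.69 ± 0.28 (SE) in WT muscle (adjusted p = 0.000149) and -1.79 ± 0.27 in MKO muscle (adjusted p = 0.00347), and it passed under all 22 other settings in both genotypes. In bulk muscle, fewer cells of a type and less RNA per cell cannot be told apart.

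The 250 bases before the RefSeq start of Kcnj2 (GRCm38.p6) are shown because this is the gene with the largest fall. They lie at chr11:111065914-111066163 on the plus strand, hold no annotated exon, and are written 5′ to 3′ in lower case. The capitals mark the E-box CACGTG, at positions -84 to -79 from the start.
Kcnj2: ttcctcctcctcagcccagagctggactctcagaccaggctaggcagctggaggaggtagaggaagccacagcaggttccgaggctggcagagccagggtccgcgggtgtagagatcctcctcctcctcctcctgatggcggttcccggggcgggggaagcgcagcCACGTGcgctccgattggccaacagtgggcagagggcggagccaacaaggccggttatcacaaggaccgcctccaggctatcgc
Windows of this length were searched on both strands for 6 motifs. These were the cyclic-AMP response element (TGACGTCA), its first 5 letters (TGACG), the E-box (CACGTG), the AP-1 motif (TGANTCA), the D-box (TTATGTAA) and a glucocorticoid receptor motif (TGTTCT). The 5 letters also lie within the full response element, and in the Kcne4 window they overlap the E-box. RefSeq windows were found for 34 of the 45 genes and for 4 of the 7 that changed. The E-box was in 8 of the 47 windows of channel genes (Clcn4, Clcn6, Clcn7, Kcnab1, Kcne4, Kcnj2 and Kcnn4), beside 6.02% of the 32851 windows of all genes. The Kcnj2 window held none of the other 5 motifs. A match of letters describes the window and says nothing of binding.

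The other inward rectifiers were less changed. Kcnj11 (chr7:46093953-46100764, minus strand) had 27.6, 23.9 and 28.7 CPM in exercised WT and 34.2, 38.0 and 41.6 CPM in sedentary WT muscle. Its libraries did not overlap, and the log2 fold change was -0.51 ± 0.11 (adjusted p = 0.0142). Without sedentary WT replicate 4 (adjusted p = 0.0640) or exercised WT replicate 4 (adjusted p = 0.0667) it did not pass. In MKO muscle Kcnj11 had 25.5, 29.1 and 23.3 CPM after running and 30.5, 33.3 and 33.9 CPM at rest, also without overlap, at -0.33 ± 0.11 (adjusted p = 0.153). Kcnj12 had a log2 fold change of -0.15 ± 0.13 in WT and -0.40 ± 0.13 in MKO muscle, and did not pass in either (adjusted p = 0.587 and 0.132). Kcnj8 stood at -0.20 ± 0.27 in WT and -0.09 ± 0.27 in MKO muscle and did not pass (adjusted p = 0.743 and 0.933). Of the 7 mural markers, 3 fell in WT muscle (Pdgfrb, Notch3 and Vtn) and 2 in MKO muscle (Pdgfrb and Notch3). Summed, those 7 came to 338 to 432 CPM in exercised WT and 370 to 463 CPM in sedentary WT muscle. In MKO muscle the sum was 256 to 343 CPM after running and 369 to 407 CPM at rest. It includes Abcc9, at 115 to 194 CPM per library, which is also listed below among the channel partners. The part of mural cells in the level of Kcnj8 was not tested. Log2 fold changes of the 4 inward rectifiers were all below 0 in both genotypes, also when libraries were scaled by median-of-ratios factors or by their totals alone.

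Kcnv2 (ENSMUSG00000047298, chr19:27322588-27337179, plus strand) encodes a silent subunit that joins other voltage-gated potassium channels and changes their gating. It had 2.97, 2.44 and 5.60 CPM in exercised WT and 0.412, 0.539 and 0.274 CPM in sedentary WT muscle. In MKO muscle it had 1.99, 3.04 and 1.72 CPM after running and 0.400, 0.334 and 0.181 CPM at rest. All 6 exercised libraries lay above all 6 sedentary ones, with 24 to 76 counts against 3 to 8. The log2 fold change was 3.14 ± 0.41 in WT (adjusted p = 0.000659) and 2.86 ± 0.45 in MKO muscle (adjusted p = 0.00442). It passed under every other setting in both genotypes. None of the other 14 tested voltage-gated genes passed in either genotype.

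Kcne4 (chr1:78816758-78820028, plus strand) encodes an auxiliary subunit known to damp voltage-gated potassium currents. It had 4.03, 2.51 and 3.17 CPM in exercised WT and 0.619, 1.21 and 1.10 CPM in sedentary WT muscle, without overlap, and rose by a log2 fold change of 1.72 ± 0.38 (adjusted p = 0.0147). In MKO muscle it had 1.99, 3.41 and 1.65 CPM after running and 0.933, 1.14 and 0.363 CPM at rest. These did not overlap either, but at 1.54 ± 0.40 the difference did not pass (adjusted p = 0.0566), although DESeq2 gave an adjusted p of 0.0280. In WT muscle the call was lost without sedentary WT replicate 1 (adjusted p = 0.0616) or exercised WT replicate 3 (adjusted p = 0.0652). The 2 other auxiliary genes, Kcnab1 and Kcnab2, which encode cytosolic beta subunits, did not pass, with log2 fold changes of 0.32 ± 0.31 and 0.09 ± 0.34 in WT muscle.

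Kcnk1 and Kcnk6 encode closely related potassium channels with paired pore domains, known for background potassium currents. Kcnk1 (chr8:125995170-126030685, plus strand) had 2.55, 2.59 and 1.33 CPM in exercised WT and 0.481, 0.809 and 0.617 CPM in sedentary WT muscle. In MKO muscle it had 1.23, 1.48 and 1.37 CPM after running and 1.67, 0.802 and 0.484 CPM at rest. The WT libraries did not overlap and the MKO libraries did. The log2 fold change was 1.75 ± 0.41 in WT (adjusted p = 0.0204) and 0.48 ± 0.40 in MKO muscle (adjusted p = 0.662). These are 7 to 36 counts per library, and when sedentary WT replicate 1 or 4 or exercised WT replicate 3 or 4 was left out, the WT difference did not pass (adjusted p between 0.0655 and 0.0795).

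The 250 bases before the RefSeq start of Kcnk1, at chr8:125994852-125995101 on the plus strand, also holds no annotated exon and is shown beside that of Kcnj2 as the window of a gene that rose. It held none of the 6 motifs and is in lower case throughout.
Kcnk1: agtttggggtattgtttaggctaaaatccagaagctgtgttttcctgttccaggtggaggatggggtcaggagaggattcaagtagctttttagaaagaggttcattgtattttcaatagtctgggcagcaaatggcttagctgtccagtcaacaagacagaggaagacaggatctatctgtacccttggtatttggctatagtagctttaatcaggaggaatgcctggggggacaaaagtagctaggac

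Kcnk6 (chr7:29221926-29232515, minus strand) had 2.34, 1.77 and 2.43 CPM in exercised WT and 1.44, 1.35 and 1.17 CPM in sedentary WT muscle, without overlap, and rose by a log2 fold change of 0.72 ± 0.18 (adjusted p = 0.0342). In MKO muscle it had 1.71, 1.33 and 1.44 CPM after running and 1.27, 1.47 and 1.45 CPM at rest, with overlap, at 0.10 ± 0.19 (adjusted p = 0.916). This was the least stable of the 7: it passed under 11 of 22 other settings, missed with DESeq2 (adjusted p = 0.226), and missed in the absence of the 3 libraries that stood apart (log2 fold change 0.64, adjusted p = 0.117) and when any of 5 WT libraries was left out (adjusted p between 0.0590 and 0.142). Those 5 were sedentary WT replicates 1, 3 and 4 and exercised WT replicates 3 and 5. Kcnk5 and Kcnk2, the other genes of this family, had log2 fold changes of 0.35 ± 0.30 and -0.25 ± 0.34 in WT muscle and did not pass.

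Clcn2 (chr16:20702964-20717746, minus strand) encodes a chloride channel of the surface membrane that opens on hyperpolarisation. It had 3.82, 3.25 and 5.16 CPM in exercised WT and 1.31, 1.35 and 2.40 CPM in sedentary WT muscle, without overlap, and rose by a log2 fold change of 1.27 ± 0.29 (adjusted p = 0.0182). In MKO muscle it had 2.95, 3.19 and 2.01 CPM after running and 2.53, 1.54 and 1.57 CPM at rest, with overlap, at 0.53 ± 0.30 (adjusted p = 0.455). In WT muscle it missed the threshold without sedentary WT replicate 1 or 3 or exercised WT replicate 5 (adjusted p between 0.0740 and 0.0819), and without the 3 libraries that stood apart (adjusted p = 0.0585). Clcn2 shares 85 exonic bases on the opposite strand with Fam131a, which had 1049 to 1591 counts per library and itself rose in exercised WT muscle (log2 fold change 0.60, adjusted p = 0.00501). It shares another 82 with Polr2h (36 to 62 counts). No source used here says how strand was treated in counting, so that reads of these genes in the shared stretches cannot be told apart. Clcn1, the main chloride channel of the fibre, had 67.8, 109 and 138 CPM in exercised WT and 79.5, 131 and 152 CPM in sedentary WT muscle, with overlap, at -0.20 ± 0.28 (adjusted p = 0.755). It shares 445 exonic bases on the opposite strand with Fam131b, which had 10 to 203 counts. The intracellular exchangers Clcn3, Clcn4, Clcn5, Clcn6 and Clcn7 did not pass either, with log2 fold changes between -0.74 (Clcn5) and 0.22 (Clcn3).

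No sodium channel gene passed for running. In WT muscle Scn4a averaged 284 ± 65.4 CPM after running and 266 ± 26.3 CPM at rest (SD, n = 3). Scn7a had 3.04, 3.77 and 4.20 CPM in exercised WT and 5.57, 4.72 and 5.90 CPM in sedentary WT muscle, which do not overlap, at a log2 fold change of -0.56 ± 0.26 (adjusted p = 0.248). Of the 5 calcium-activated genes none passed. Kcnn2 was nearest, with 3.33, 2.73 and 3.61 CPM in exercised WT and 1.99, 2.23 and 1.65 CPM in sedentary WT muscle at 0.72 ± 0.25 (adjusted p = 0.113). Kcnc1, among the voltage-gated genes, also had groups that did not overlap, at 0.46 ± 0.22 (adjusted p = 0.251).

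**Figure D3:**
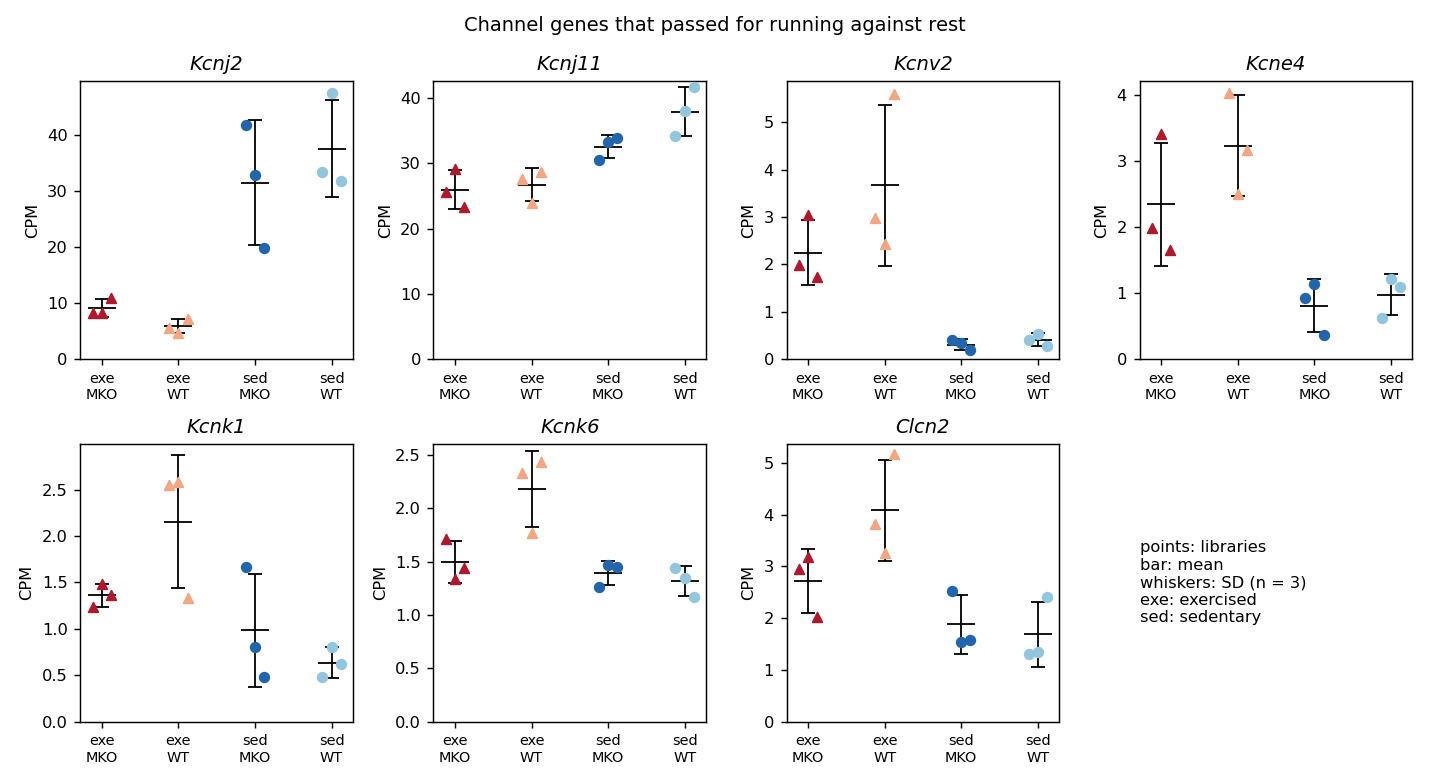
CPM in each library of the 7 channel genes that passed for running against rest, in exercised MKO, exercised WT, sedentary MKO and sedentary WT muscle. Points are libraries, the bar is the mean and whiskers are the SD (n = 3). Kcnj2, Kcnj11, Kcnv2 and Kcne4 separate all exercised from all sedentary libraries, while for Kcnk1, Kcnk6 and Clcn2 exercised and sedentary libraries overlap. The overlap involves exercised MKO muscle for each of these genes and, for Kcnk1, also exercised WT replicate 5 at 1.33 CPM.

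In MKO muscle, running changed 2 of the 44 channel genes, Kcnv2, which rose 7.26-fold, and Kcnj2, which fell 3.45-fold. These are 4.55% of the channel genes, beside 4.05% of all genes tested (2.29% rose and 1.75% fell), with edgeR's quasi-likelihood test. Among the 39 tested genes with at least 10 counts in 3 or more exercised and 3 or more sedentary libraries, 1 passed (2.56%), Kcnj2. Kcnv2 and Kcnj2 had both passed in WT muscle. The groups did not overlap for 7 of 44 genes (15.9%), against 21.7% of all genes, and 10 of 44 reached an unadjusted p under 0.05 (22.7%, against 15.1%). Log2 fold changes were above 0 for 20 of 44, beside 50.4% of all genes. With library totals alone they were above 0 for 15 of 44, at a median of -0.17 against -0.15 for all genes. The genes without overlap that missed the threshold were Kcne4, Kcnj11 and Kcnj12, described above, and Kcnab1 and Clcn1. Kcnab1 had 1.03, 0.963 and 0.431 CPM in exercised MKO and 1.27, 2.27 and 1.45 CPM in sedentary MKO muscle, at -1.03 ± 0.38 (adjusted p = 0.200). Clcn1 had 65.4, 58.7 and 78.9 CPM in exercised MKO and 111, 83.6 and 132 CPM in sedentary MKO muscle, at -0.69 ± 0.28 (adjusted p = 0.261). The count of 2 was 2 or 3 under every other setting.

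**Figure D4:**
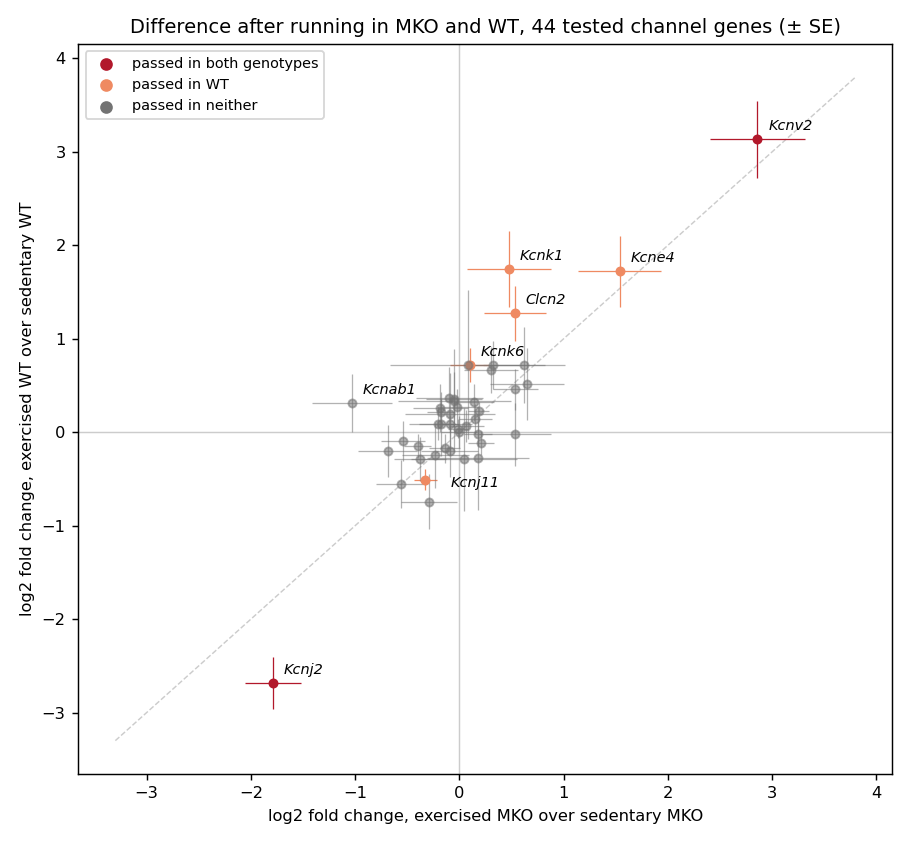
Log2 fold change after running of the 44 tested channel genes in MKO muscle (horizontal axis) and WT muscle (vertical axis), with bars for the SE and a dashed line of equal response. Kcnv2, at 2.86 and 3.14, and Kcnj2, at -1.79 and -2.69, lie furthest from 0. Kcne4 lies at 1.54 and 1.72, Kcnk1 at 0.48 and 1.75 and Clcn2 at 0.53 and 1.27, and most other genes are nearer 0.

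Whether the response to running differed between the genotypes was tested as the difference of the responses, MKO minus WT. None of the 44 channel genes passed, nor did any of the 14486 genes (0% of all genes), with edgeR's quasi-likelihood test. DESeq2 and limma-voom also called 0 channel genes. With no adjustment, 3 channel genes had a p under 0.05 by edgeR (6.82%, against 3.69% of all genes), 2 by DESeq2 and 3 by limma-voom. The edgeR count was 0 when exercised MKO replicate 4 was left out, 1 when exercised WT replicate 3 or sedentary MKO replicate 2 was, and 5 when sedentary WT replicate 4 was. It was 1 in the absence of the 3 libraries that stood apart. The difference was above 0 for 15 of 44, beside 51.2% of all genes. With library totals alone it was above 0 for 11 of 44, at a median of -0.24 against -0.05 for all genes. The 3 by edgeR were Kcnab1 at a difference of -1.35 ± 0.49, Kcnk1 at -1.27 ± 0.58 and Kcnj2 at 0.90 ± 0.38 on the log2 scale (adjusted p = 0.983 for each). A passing call in WT and not in MKO muscle, as for Kcnk1, Kcnk6, Clcn2, Kcne4 and Kcnj11, is therefore not shown to be a difference between the genotypes. The difference was -0.62 ± 0.26 for Kcnk6, -0.74 ± 0.42 for Clcn2, -0.18 ± 0.57 for Kcne4, 0.18 ± 0.16 for Kcnj11 and -0.28 ± 0.71 for Kcnv2.

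The genotypes were also compared within each state. These comparisons use the same libraries as the ones above, and their values are not independent of them. At rest, 0 of 44 channel genes differed between MKO and WT muscle, beside 0.0069% of all genes, and 0 reached an unadjusted p under 0.05 with edgeR (3.76% of all genes did), DESeq2 or limma-voom. With libraries left out singly that edgeR count was 0 to 3 (3 without sedentary MKO replicate 2 or 3), and 4 without the 3 libraries that stood apart. With library totals alone, log2 fold changes were above 0 for 28 of 44, at a median of 0.093 against 0.087 for all genes. In the main fit they were above 0 for 22 of 44, beside 50.5% of all genes. The largest log2 fold changes were 0.65 ± 0.32 for Kcnab2 and -0.66 ± 0.34 for Kcnq5 (adjusted p = 1 for both). Groups did not overlap for 3 genes (6.82%, against 10.3% of all genes), namely Kcnab2, Kcng4 and Kcnj11. Kcng4 had 40.6, 38.1 and 39.1 CPM in sedentary MKO and 36.4, 31.4 and 8.16 CPM in sedentary WT muscle, so that its log2 fold change of 0.63 ± 0.44 rested on sedentary WT replicate 4. Without that library it was 0.22. Kcnj11 stood at -0.22 ± 0.11.

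After running, 0 of 44 channel genes passed between MKO and WT muscle, beside 0.0345% of all genes (0.0069% higher and 0.0276% lower). DESeq2, which gave no adjusted p for 25 of them, and limma-voom also called 0. Before adjustment 9 genes had p under 0.05 by edgeR (20.5%, against 16% of all genes), 8 by DESeq2 and 9 by limma-voom. Leaving out exercised MKO replicate 4 brought the edgeR count to 3, leaving out exercised WT replicate 5 to 5, and leaving out all 3 libraries that stood apart to 4. Groups did not overlap for 12 genes (27.3%, against 23.1%). Log2 fold changes were above 0 for 14 of 44 genes, beside 51.1% of all genes, with a median of -0.14 against 0.01. With libraries scaled by their totals alone they were above 0 for 15 of 44, with a median of -0.11 against 0.04. The 8 macrophage markers summed to 41.0 to 83.2 CPM in exercised MKO and 29.3 to 36.9 CPM in exercised WT muscle, and to 70.2 to 99.8 CPM in sedentary MKO and 52.9 to 60.6 CPM in sedentary WT muscle. By edgeR, 0 of the 8 passed between genotypes, with 7 after running and 5 at rest at an unadjusted p under 0.05, and their part in these values was not tested.

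Kcnab1, a cytosolic beta subunit that speeds inactivation of voltage-gated potassium channels, had the largest difference among the 44. It had 1.03, 0.963 and 0.431 CPM in exercised MKO and 2.69, 2.59 and 3.24 CPM in exercised WT muscle, with 6 to 15 counts against 35 to 44. The log2 fold change was -1.80 ± 0.36 and did not pass over all genes (adjusted p = 0.165), with an adjusted p of 0.0713 to 0.560 as single libraries were left out. In sedentary muscle the 2 groups overlapped, with 1.27, 2.27 and 1.45 CPM in MKO and 1.65, 1.82 and 3.36 CPM in WT muscle. The gene shares 201 exonic bases with the antisense gene A330015K06Rik, which had 0 to 2 counts per library.

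The other channel genes whose exercised groups did not overlap had smaller differences, and none passed. Lower values in exercised MKO muscle were found for Kcnk6 at -0.54 ± 0.18, Clcn2 at -0.59 ± 0.28, Scn4a at -0.47 ± 0.18, Kcnc4 at -0.37 ± 0.21 and Clcn4 at -0.25 ± 0.09, and for Kcnh7 at -0.45 ± 0.24. Scn4a had 230, 225 and 159 CPM in exercised MKO and 254, 238 and 359 CPM in exercised WT muscle (adjusted p = 0.250). Higher values included Kcnj2 at 0.64 ± 0.29, Clcn5 at 0.61 ± 0.30 and Kcnn4 at 0.37 ± 0.35. For Kcnj2 the adjusted p was 0.309. Clcn1 overlapped between the groups, at -0.63 ± 0.28 (adjusted p = 0.301).

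**Figure D5:**
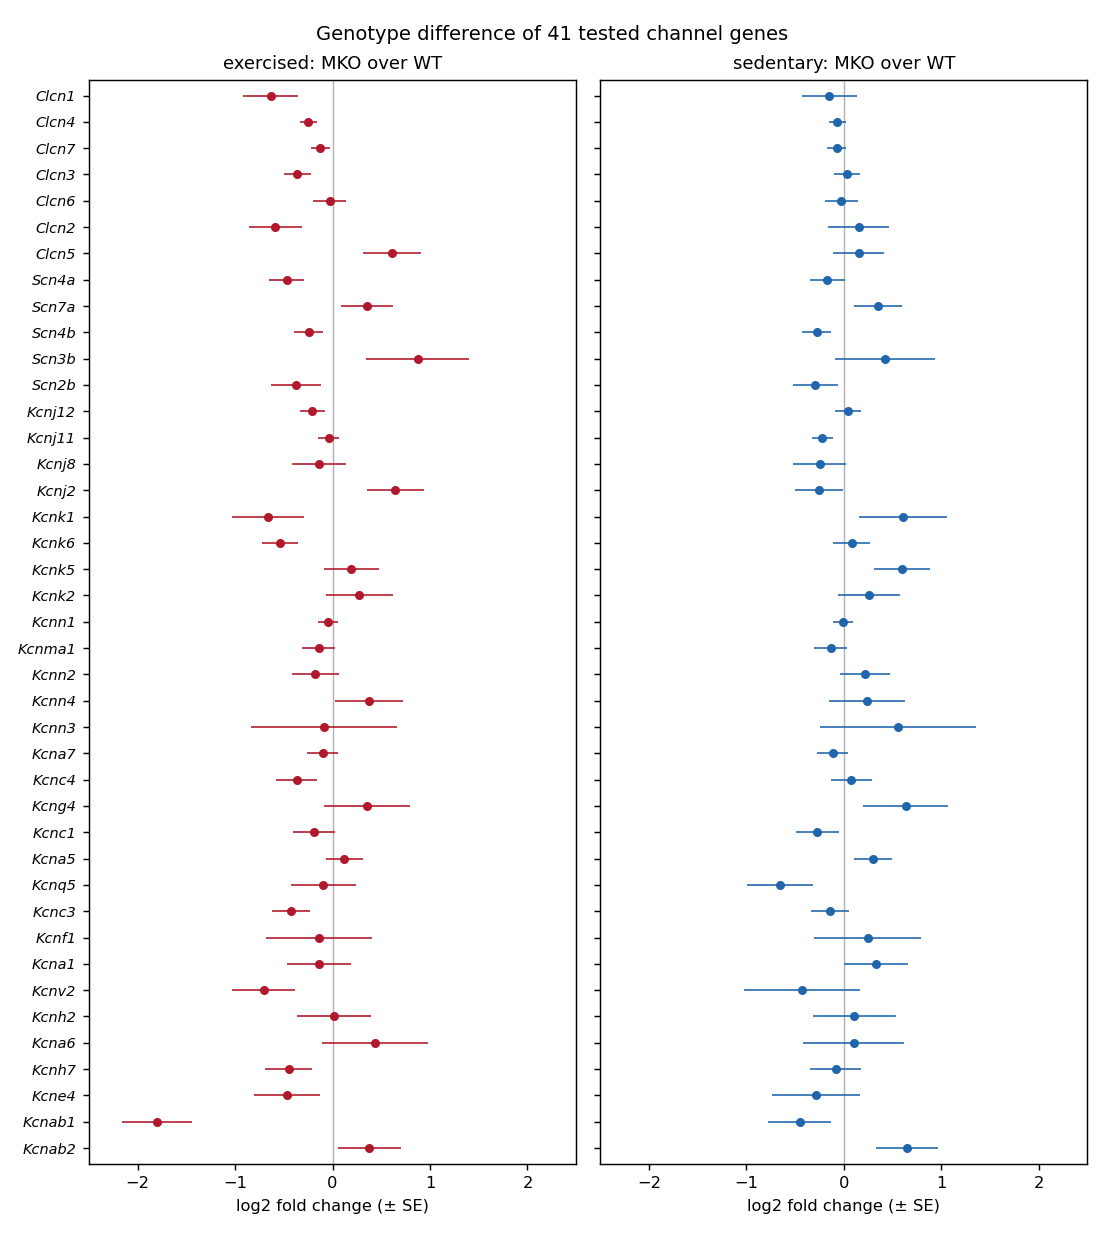
Log2 fold change of MKO over WT muscle for 41 of the 44 tested channel genes after running (left) and at rest (right), with bars for the SE. Genes are ordered by family and mean level, and Kcnab1 after running, at -1.80, is the value furthest from 0. No gene passed in either state.

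Genes that work with these channels were read from lists of pumps and carriers, of channel partners and scaffolds, and of other channels of the surface membrane. Of all genes tested, 4.14% rose and 4.1% fell after running in WT muscle, and 2.29% rose and 1.75% fell in MKO muscle. Of 17 tested pumps and carriers, among them the sodium-potassium pump subunits, 1 fell after running in WT muscle (Slc12a7, a potassium-chloride cotransporter, log2 fold change -0.49, adjusted p = 0.0453) and 0 changed in MKO muscle. Of 22 tested partners and scaffolds 0 changed by edgeR after running, with 2 in MKO and 1 in WT muscle at an unadjusted p under 0.05. Of 27 tested other channels 3 rose in WT muscle, namely Ttyh1, a tweety family protein, at 2.60 (adjusted p = 0.000175), Clic4, an intracellular chloride channel family protein, at 0.96 (adjusted p = 0.0184) and Piezo1, a channel opened by stretch, at 0.88 (adjusted p = 0.0463). Ttyh1 also rose in MKO muscle, at 1.96 (adjusted p = 0.00303). It had 5.80, 5.61 and 6.12 CPM in exercised WT and 0.893, 1.15 and 0.823 CPM in sedentary WT muscle, and 3.36, 5.11 and 2.87 CPM in exercised MKO and 0.999, 0.535 and 1.33 CPM in sedentary MKO muscle. Between genotypes none of these listed genes passed by edgeR in either state. After running, 8 of the 22 partners and scaffolds had an unadjusted p under 0.05 between MKO and WT muscle, as had 4 of the 17 pumps and carriers and 3 of the 27 other channels, beside 16% of all genes. The log2 fold changes of the partners were below 0 for 15 of 22. At rest these counts were 1, 0 and 1, beside 3.76% of all genes.

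Markers of other cell types also moved with running. The 8 markers of fibro-adipogenic cells, none of them at 0, summed to 543 to 628 CPM in exercised WT and 1086 to 1126 CPM in sedentary WT muscle, and to 588 to 731 CPM in exercised MKO and 1041 to 1248 CPM in sedentary MKO muscle. Of these, 5 fell in WT and 4 in MKO muscle. Of the 8 endothelial markers, 7 had log2 fold changes below 0 in each genotype, with medians of -0.44 in WT and -0.43 in MKO muscle. Cldn5 rose and Tek fell in both genotypes. The 8 summed to 156 to 189 CPM in exercised WT and 180 to 223 CPM in sedentary WT muscle. In MKO muscle they summed to 122 to 173 CPM after running and 170 to 214 CPM at rest. The 5 red blood cell markers summed to 513 to 836 CPM in exercised MKO and 1357 to 2278 CPM in sedentary MKO muscle, and to 447 to 573 CPM in exercised WT and 419 to 1683 CPM in sedentary WT muscle. All 5 had log2 fold changes below 0 in both genotypes, and by edgeR 0 passed, with 5 in MKO and 3 in WT muscle at an unadjusted p under 0.05. Of the 8 macrophage markers, whose sums are given above, Cd163 fell in both genotypes and C1qc in WT muscle. Of the 5 satellite cell markers, Chodl and Vcam1 fell in MKO muscle, where the 5 summed to 6.15 to 8.05 CPM after running and 10.36 to 13.97 CPM at rest. Of the 7 neuromuscular junction markers only Musk passed for running, and it rose in WT muscle. There 5 of the 7 had log2 fold changes below 0, with a median of -0.37, and in MKO muscle 2 of the 7. Tagln, a smooth muscle marker, fell in WT muscle, and Vwf, an endothelial marker, fell in MKO muscle. The summed level of the 8 skeletal muscle fibre markers overlapped, at 147950 to 172516 CPM in exercised WT and 118570 to 155223 CPM in sedentary WT muscle. In MKO muscle it was 141501 to 162487 CPM after running and 125854 to 142608 CPM at rest. All 8 had log2 fold changes above 0 in both genotypes, with medians of 0.18 in WT and 0.13 in MKO muscle, and 0 passed by edgeR. The part of cell content in the changes of Kcnj2, Kcnv2, Kcne4, Kcnk1, Kcnk6, Kcnj11 and Clcn2 was not tested.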

How the data were processed

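RNA from gastrocnemius of 12 mice, 3 per group, was sequenced by BGI on the DNBSEQ platform, per the labels' protocols. The deposited values were raw counts per Ensembl gene for 43432 identifiers. Per the submitters' processing notes, which assign no roles, the tools included StringTie 2.1.4, HISAT2 2.2.1, SAMtools 1.9, FastQC 0.12.1 and DESeq2 1.40.2 (R 4.3), with both mm10 and GRCm38.p6 as builds. The counting tool, the annotation release, the strand setting and the handling of multiply matched reads are stated in no source used here. A misspelt column name was read as exercised MKO replicate 4, since no other library lacked a column. Of the identifiers, 42462 were matched to symbols and GRCm38.p6 positions of GENCODE M21.

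The count tests used edgeR 4.0.16 (R 4.3.3). filterByExpr, at a minimum count of 10 and a minimum total of 15, retained 14486 genes, and TMM factors scaled the libraries. A single quasi-likelihood model held all 12 libraries, with 4 group means and hence 8 residual degrees of freedom. The threshold was 0.05 on p-values adjusted over all genes (Benjamini-Hochberg). The SE of a log2 fold change is its size over the root of F. For some genes of low count, among them Kcnk6 and Kcnh7, the p-value was larger than that F implies. Their SE therefore understates the uncertainty. The biological coefficient of variation came to 15.3%. A total of 3 counts corresponds to 0.181 to 0.222 CPM, and errors cover these 12 libraries only. CPM per kb divides CPM by the merged exon length. No library was a copy of another. Genes were named by rule: those that passed in a comparison, the 2 highest per kb of each family, the 3 largest differences each way among genes of at least 1 CPM without overlap, a textbook list of muscle, mural, nerve and glial channels, and 3 genes on each side of the count threshold. Genes named beyond it (Kcnf1, Scn3b, Kcnc1, Kcnn2, Kcnab2, Kcnk2, Kcnk5, Kcnh7, Kcnn4 and the remaining exchangers) were chosen after their values were seen. Some genes are counted here but not reported singly. The members and all lists were chosen with earlier results of these data known. Scripts were tested on simulated data.

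Alternatives were DESeq2 1.42.0, limma-voom (limma 3.58.1), median-of-ratios factors, library totals alone, 3 other filters, a fit restricted to the compared groups, a block for replicate number, each library left out, and 3 outlying libraries left out together. Promoter windows came from RefSeq, in which 34 of the 45 genes matched. The search of protein sequences for selectivity filter letters was not run. Plots used matplotlib 3.10.9 (Python 3.11.15).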

Additional observations from a re-analysis of the deposited data

How the results depend on the processing

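Of the 9 values that passed for single channel genes, 172 of 198 values under other settings passed in the same direction and 26 no longer passed, none with a change of sign. Kcnj2 and Kcnv2 passed in both genotypes under every setting run. The count of 7 channel genes for running in WT muscle was 6 or 7 with DESeq2, limma-voom, the other scalings, the other filters or only the compared groups, 5 without the 3 libraries that stood apart, and 3 to 8 with single libraries left out. The count for MKO muscle was 2 or 3, and those for genotype and for the difference of the responses were 0 under every setting run (the difference needs all 4 groups and has no value for the compared groups alone). With the replicate number as a block the WT count was 3 (Kcnj11, Kcnj2 and Kcnv2). The deviations of libraries from their group means were correlated at -0.173 to 0.084 in 10 same-numbered pairs. Pairs with different numbers gave -0.124 to 0.129. With 3 libraries per group this cannot exclude a pairing or batch by number, of which the labels name none. With library totals alone the median of all genes moved to -0.10 in WT and -0.15 in MKO muscle, and the share of rises among all calls was 35.2% against 50.2% in WT and 30.3% against 56.7% in MKO muscle. Kcnj11 then also passed in MKO muscle (adjusted p = 0.0375). Signs that turned were all of differences that did not pass, and the cause was not tested. Between sedentary MKO and WT, Clcn2 ranged from -0.11 to 0.50 and Kcne4 from -0.61 to 0.076 with single libraries left out, and Kcne4 was 0.080 without the 3 libraries. Between exercised MKO and WT, Kcnj11 was 0.028 with the replicate block, 0.086 without the 3 libraries and -0.14 to 0.025 with single libraries left out. For running in MKO muscle, Kcnk6 was -0.050 with library totals alone and -0.011 to 0.17 with single libraries left out. For the difference of the responses, Kcne4 ranged from -0.56 to 0.14 and Kcnv2 from -0.56 to 0.16 with single libraries left out, and Kcnv2 was 0.16 with the replicate block and 0.040 without the 3 libraries. Depth limits the low genes: Kcnk1, Kcnk6 and Kcnab1 rest on 6 to 49 counts per library. Kcne4 rests on 6 to 57, Clcn2 on 19 to 70 and Kcnv2 on 3 to 76 counts.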
